A study of Mus musculus with 6 samples.

Results

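Organoids grown from a Pik3ca/Trp53 adenocarcinoma were set against organoids grown from an Apc/Trp53 cyst, both started from mouse fallopian tube epithelium. In the adenocarcinoma-derived culture, basal keratins, milk protein genes, acute-phase proteins, chemokines and ERK-induced genes had higher signals. In the cyst-derived culture, most listed Wnt targets and feedback genes had higher signals, as did the oviduct factors Msx1 and Foxa2 and the enzyme genes Gulo and Aldh1a1. The comparison rests on 2 of the 6 samples of the series, 1 array for each culture, so no gene has a replicate check and no p-value is given for it.

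The adenocarcinoma-derived culture (group P5_after) carried Pik3caH1047R with Trp53 loss and came from a subcutaneous tumour with the histology label adenocarcinoma. The cyst-derived culture (A5_after) carried Apc580D with Trp53 loss and came from a subcutaneous lesion labelled cyst. The other 4 arrays held the Pik3ca/Trp53 and the Apc/Trp53 organoids before inoculation, organoids with Trp53 loss alone, and control organoids from Trp53flox/flox mice with the vector pLKO.1. Both tumour-derived cultures were thus labelled with Trp53 loss, although a Trp53 signal was well above background on the adenocarcinoma-derived array. Per the labels' protocols the organoids were propagated in serum-free medium with EGF, R-spondin1, Noggin, the kinase inhibitor Y27632, Jagged-1 and the GSK3 inhibitor CHIR-99021. Genotype and histology cannot be told apart here, because each histology stands on 1 genotype and 1 array. The recipient mice, the age of the animals, and whether a culture was 1 clone or a pool are details the labels do not give.

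Wnt signals block a destruction complex of APC, AXIN and GSK3, so that beta-catenin enters the nucleus and, with TCF/LEF factors, switches on targets that include the pathway's own inhibitors. Pik3ca encodes the catalytic subunit of PI3-kinase, which activates AKT and keeps FOXO factors out of the nucleus, and H1047R is an activating mutation found often in human cancers. Trp53 encodes p53, which arrests or removes damaged cells. The fallopian tube epithelium holds secretory cells, marked by PAX8 and oviductin, and multiciliated cells, driven by FOXJ1.

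Levels below are log2 of the array's background-subtracted intensity minus the 75th percentile of that array, so that 0 is the 75th percentile and a step of 1 is a 2-fold difference. A level can be compared between arrays for the same gene but not between genes. A gene counted as measured when either array had a probe of it well above background, which held for 15289 genes. This filter weighs on the counts. Of 929 genes above background on the adenocarcinoma-derived array only, 862 were at least 2-fold higher there and 0 lower. Of 1068 above background on the cyst-derived array only, 935 were at least 2-fold lower in the adenocarcinoma-derived culture and 0 higher. Of the 15289 genes, 2587 (16.9%) were at least 2-fold higher in the adenocarcinoma-derived culture and 2396 (15.7%) lower. The median difference over all genes was 0.01. These shares are the background for each list count below. On the adenocarcinoma-derived array 48.56% of gene probes were well above background, against 50.97% on the cyst-derived array, and no spot was saturated. The arrays lay side by side in row 2 of 1 slide and were read in 1 scan. Copies of the same probe differed by a median SD of 0.0389 on the adenocarcinoma-derived array and 0.0459 on the cyst-derived array, and different probes of a gene by a median SD of 0.182. These spreads are technical and say nothing of the spread between tumours. In bulk RNA, fewer cells of a type and less RNA per cell cannot be told apart.

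**Figure D1:**
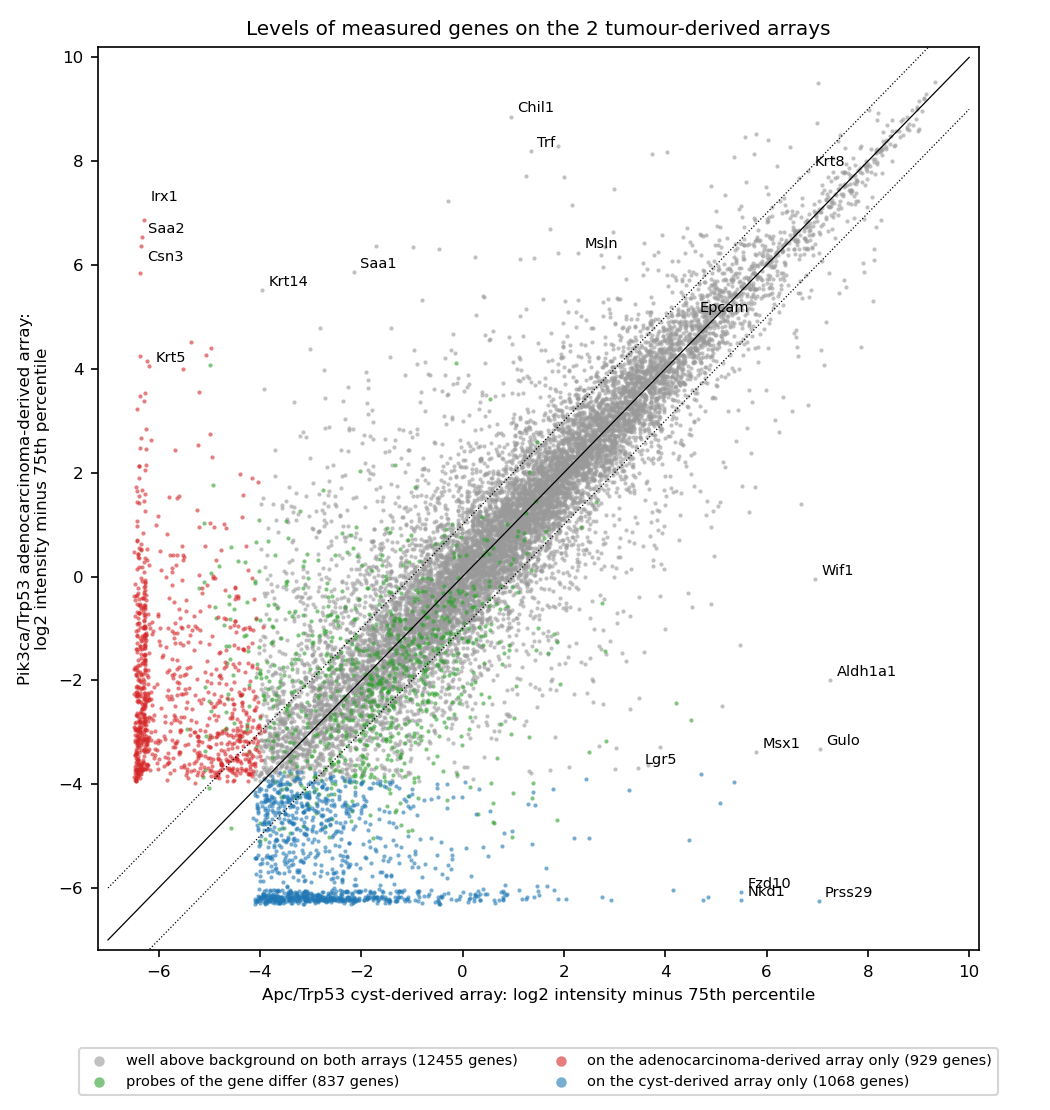
Each point is 1 of the 15289 measured genes, placed by its level on the cyst-derived array (x axis) and on the adenocarcinoma-derived array (y axis), both as log2 intensity minus the 75th percentile. The solid line marks equal levels and the dotted lines a 2-fold difference. Red points (929 genes) were well above background on the adenocarcinoma-derived array only and blue points (1068 genes) on the cyst-derived array only. Epcam and Krt8 lie near the diagonal, Krt14, Saa2, Irx1 and Csn3 far above it, and Gulo, Msx1, Nkd1 and Prss29 far below it.

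Epithelial markers were high in both cultures. Epcam, an epithelial adhesion molecule, had levels of 5.02 in the adenocarcinoma-derived and 4.55 in the cyst-derived culture. Krt8, a keratin of simple epithelium, had 7.82 and 6.82 in the same order, and E-cadherin (Cdh1) had 4.40 and 4.66. Pax8, the secretory lineage factor, stood at -0.40 in the adenocarcinoma-derived and 0.52 in the cyst-derived culture, and Ovgp1, the oviductin gene, at 3.04 and 4.65. Foxj1, the driver of motile cilia, was low in both, at -1.71 in the adenocarcinoma-derived and -0.49 in the cyst-derived culture. The 5 fibroblast markers were Pdgfra, Dcn, Lum, Col1a1 and Col3a1. Well above background were 2 (Pdgfra and Col1a1) in the adenocarcinoma-derived culture and 1 (Pdgfra) in the cyst-derived culture. The summed levels of the 5 were -0.15 and -1.14 on the log2 scale, in the same order. On the other 4 arrays 0 of the 5 were well above background, with summed levels from -3.46 to -2.74. Ptprc, the common leukocyte antigen, had -2.54 in the cyst-derived culture and was not well above background on the other 5 arrays, the adenocarcinoma-derived one included. The 5 leukocyte markers had summed levels of 3.27 in the adenocarcinoma-derived and 1.08 in the cyst-derived culture, with Cd68, a lysosomal protein, at 3.0 and 0.01 (4.15 in control organoids).

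The targeted genes were examined before the rest. Trp53, with 1 probe, had a level of -1.05 in the adenocarcinoma-derived culture and was not well above background in the cyst-derived culture, at least 8.50-fold higher in the adenocarcinoma-derived culture. It was not well above background in Pik3ca/Trp53 organoids before inoculation either, had -2.99 in Apc/Trp53 organoids before inoculation, was not well above background with Trp53 loss alone, and had 1.46 in control organoids. The Trp53 signal of the adenocarcinoma-derived array therefore lay between those of the Trp53-loss cultures and control. Whether the probe lies in the deleted exons was not checked here, and whether cells that kept Trp53 contributed RNA was not tested. Pik3ca had levels of 0.36 in the adenocarcinoma-derived and 2.67 in the cyst-derived culture, 4.97-fold lower in the first. In the cultures before inoculation Pik3ca stood at 2.55 with Pik3caH1047R and 1.34 with Apc580D. Apc had -3.10 in the adenocarcinoma-derived and -3.11 in the cyst-derived culture, which says nothing of the alleles, since the probe's place relative to them is not known.

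Genes that p53 activates did not move together. Among 37 p53 targets measured, 8 had higher and 1 lower signals by 2-fold or more in the adenocarcinoma-derived culture, with a median of 0.19. The list includes Trp53 itself, which is among the 8 higher ones. Over all measured genes, 16.9% were higher and 15.7% lower. Phlda3, an AKT inhibitor, had 3.66 in the adenocarcinoma-derived and 0.09 in the cyst-derived culture, against 5.81 in control organoids. Fas, a death receptor, had 1.24 in the adenocarcinoma-derived and -3.35 in the cyst-derived culture. Mdm2, the p53 ubiquitin ligase, had 0.05 and -0.11 in the same cultures, against 1.61 in control organoids. Cdkn1a, the p21 inhibitor of the cell cycle, had -0.37 in the adenocarcinoma-derived and -1.63 in the cyst-derived culture, at least 1.33-fold higher in the adenocarcinoma-derived one, against 3.03 in control organoids. Ddit4l, a stress-induced mTOR inhibitor, had -0.23 in the adenocarcinoma-derived culture and was dim in the cyst-derived culture, at least 14.9-fold higher, against -0.08 in control organoids. Against control organoids, Phlda3, Mdm2 and Cdkn1a were lower in both tumour-derived cultures, whereas in the adenocarcinoma-derived culture Fas was above its control level of -1.14 and Ddit4l near it.

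Wnt feedback inhibitors and other Wnt targets were lower in the adenocarcinoma-derived culture for most members. Of 44 listed genes, 37 were measured, 21 were lower by 2-fold or more and 8 higher, with a median difference of -1.72 (-1.31 with dim signals set to the limit of detection above background). Before inoculation the Pik3ca/Trp53 culture was lower than the Apc/Trp53 culture in 16 of 33 measured members and higher in 1, with a median of -0.99, on arrays that are not part of the later pair.

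Nkd1, a feedback inhibitor that binds Dishevelled, was not well above background in the adenocarcinoma-derived culture and had a level of 5.50 in the cyst-derived culture, at least 712-fold lower. Before inoculation Nkd1 had -2.66 in Pik3ca/Trp53 and 1.15 in Apc/Trp53 organoids, and it was dim with Trp53 loss alone and in control organoids. Axin2, the scaffold of the destruction complex and a general readout of Wnt activity, was dim in the adenocarcinoma-derived culture and had 0.87 in the cyst-derived culture, at least 28.6-fold lower, although its 2 probes differed by an SD of 2.88. Axin2 had at least 1 probe above background on the other 4 arrays, with levels of -2.43 in Pik3ca/Trp53 and -0.42 in Apc/Trp53 organoids before inoculation, -2.92 with Trp53 loss alone and -3.02 in control organoids. It was the adenocarcinoma-derived array, then, that held the dimmest Axin2 signal of the 6, and the cyst-derived array the brightest.

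Lgr5, a receptor for R-spondin and an epithelial stem cell marker, had -3.69 in the adenocarcinoma-derived and 3.47 in the cyst-derived culture, 143-fold lower. Wif1, a secreted inhibitor that binds Wnt ligands, had -0.05 in the adenocarcinoma-derived and 6.96 in the cyst-derived culture, 130-fold lower. Dkk2, a secreted antagonist of the LRP co-receptors, was dim in the adenocarcinoma-derived culture and had 2.92 in the cyst-derived culture, at least 119-fold lower. Lef1, the TCF/LEF family factor, had -3.78 in the adenocarcinoma-derived and 1.36 in the cyst-derived culture, 35.2-fold lower. Notum, a lipase that inactivates Wnt ligands, had -0.40 in the adenocarcinoma-derived and 3.48 in the cyst-derived culture, 14.7-fold lower. The ubiquitin ligase Rnf43, which clears Frizzled receptors, had 1.75 in the adenocarcinoma-derived and 4.56 in the cyst-derived culture, 7.05-fold lower. Lef1 was also below its level in control organoids (-1.19) in the adenocarcinoma-derived culture, as was Lgr5 (-2.37 in control).

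Some listed Wnt genes went the other way. Sfrp1, a secreted Frizzled-related inhibitor, had 0.68 in the adenocarcinoma-derived culture and was dim on the other 5 arrays, at least 28.2-fold higher than in the cyst-derived culture. Tbx3, a T-box factor, had -0.45 in the adenocarcinoma-derived culture and was likewise dim on the other 5 arrays, at least 12.9-fold higher. Myc (-0.32 in the adenocarcinoma-derived and -0.48 in the cyst-derived culture) and Ccnd1 (4.76 and 5.69) differed by less than 2-fold. Among ligands and receptors, 8 of 27 measured genes were higher and 7 lower, with a median of -0.23. Fzd10, a Frizzled receptor, was dim in the adenocarcinoma-derived culture and had 5.50 in the cyst-derived culture, at least 712-fold lower. Before inoculation Fzd10 had 4.30 in Pik3ca/Trp53 and 5.81 in Apc/Trp53 organoids, and it had 3.91 in control organoids, so the adenocarcinoma-derived culture was the only one of the 6 in which it was dim. Wnt4, a ligand of the female reproductive tract, had 0.00 in the adenocarcinoma-derived culture and was dim in the cyst-derived culture, at least 17.6-fold higher.

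The promoters of the lower Wnt genes were searched for CTTTGAT, a short form of the TCF/LEF motif, on both strands in the window from 250 bases before to 50 bases after the start site, with sequences from RefSeq (GRCm38.p6). Of the 21 lower members, 14 had a promoter in the table and 3 of these (21.4%) held the letters, against 404 of 12111 measured genes with a promoter (3.34%), 92 of 1862 genes at least 2-fold lower (4.94%) and 60 of 1973 genes at least 2-fold higher (3.04%). The 3 promoters are shown because their genes are Wnt-induced and were lower in the adenocarcinoma-derived culture, with the matched letters in capitals. Sp5 lies at chr2:70474673-70474972 on the plus strand, Tnfrsf19 at chr14:61037938-61038237 on the minus strand and Wnt11 at chr7:98834862-98835161 on the plus strand, and each is printed 5′ to 3′ along its gene.
Sp5: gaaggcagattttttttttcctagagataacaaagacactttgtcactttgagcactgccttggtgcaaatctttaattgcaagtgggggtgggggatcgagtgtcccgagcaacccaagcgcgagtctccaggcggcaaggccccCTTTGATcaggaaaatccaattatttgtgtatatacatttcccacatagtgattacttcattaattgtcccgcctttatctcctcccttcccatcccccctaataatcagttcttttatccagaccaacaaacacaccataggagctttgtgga
Tnfrsf19: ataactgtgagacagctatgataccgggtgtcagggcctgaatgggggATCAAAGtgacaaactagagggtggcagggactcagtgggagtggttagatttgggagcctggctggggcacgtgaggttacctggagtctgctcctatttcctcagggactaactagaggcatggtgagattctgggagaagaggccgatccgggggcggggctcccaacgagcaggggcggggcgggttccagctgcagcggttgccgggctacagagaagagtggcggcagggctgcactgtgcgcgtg
Wnt11: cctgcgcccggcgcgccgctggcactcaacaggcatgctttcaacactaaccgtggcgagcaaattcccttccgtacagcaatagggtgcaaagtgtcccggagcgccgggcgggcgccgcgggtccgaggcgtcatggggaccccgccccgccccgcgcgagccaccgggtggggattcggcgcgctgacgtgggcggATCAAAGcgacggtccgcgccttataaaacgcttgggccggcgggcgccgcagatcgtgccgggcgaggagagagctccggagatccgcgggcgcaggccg
Sp5, a zinc finger factor induced by beta-catenin, had -0.32 in the adenocarcinoma-derived and 4.44 in the cyst-derived culture, 27.2-fold lower. Tnfrsf19 (Troy), a receptor and stem cell marker, had -3.10 in the adenocarcinoma-derived and 1.31 in the cyst-derived culture, at least 21.2-fold lower, with 2 probes whose differences varied by an SD of 3.52. Wnt11, a ligand of the non-canonical branch, had -3.89 in the adenocarcinoma-derived and -0.96 in the cyst-derived culture, at least 6.31-fold lower. A match is only a run of letters and not a measured binding site. The forkhead letters GTAAACA stood in 4.51% of promoters of the higher genes, 3.01% of those of the lower genes and 3.31% of all measured genes. The interferon-stimulated response element (GAAA, any 2 bases, GAAA) stood in 3.80%, 3.92% and 3.54% in the same order.

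**Figure D2:**
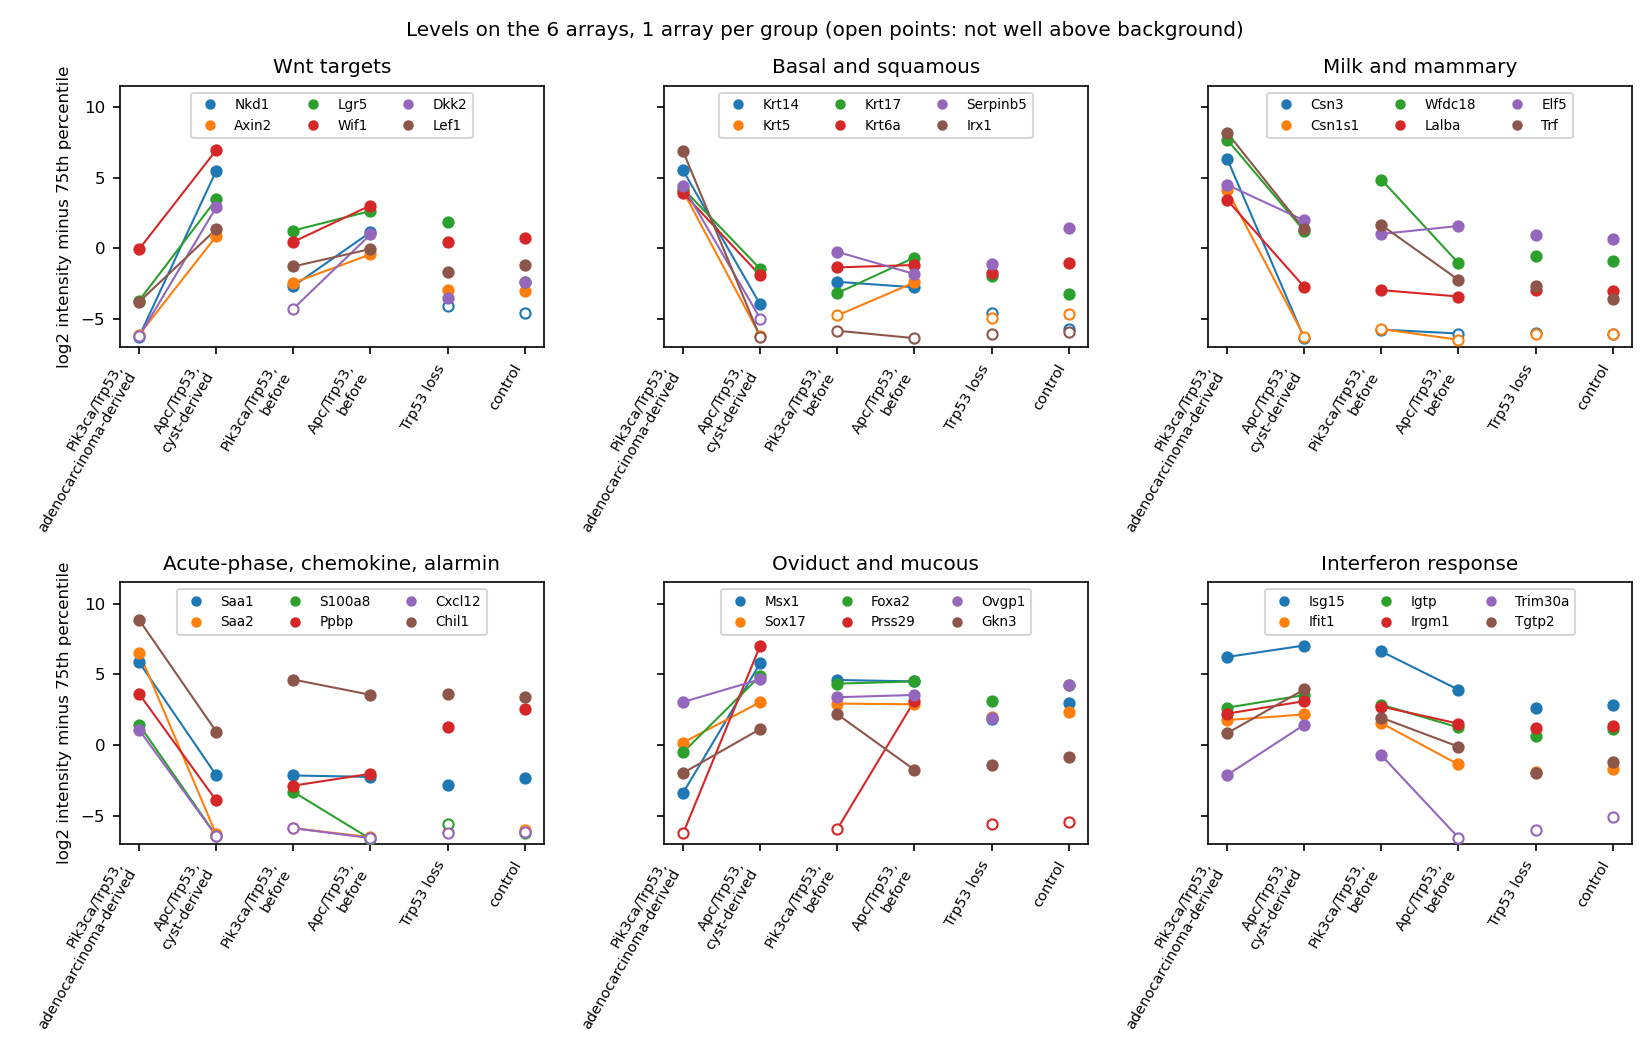
Levels of 36 genes on the 6 arrays (y axis, log2 intensity minus the 75th percentile), 1 panel for each of 6 gene groups, with the adenocarcinoma-derived array leftmost and the cyst-derived array beside it. Lines join the Pik3ca/Trp53 and Apc/Trp53 arrays of the same stage, and open points were not well above background. Trf is drawn with the milk and mammary genes but belongs to the secretory oviduct list. The Wnt targets climb to the cyst-derived array, the basal, milk and acute-phase genes stand highest on the adenocarcinoma-derived array, and the interferon-response lines tilt opposite ways at the 2 stages.

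Most ERK-induced genes were higher in the adenocarcinoma-derived culture. Of 29 measured, 21 were at least 2-fold higher and 1 lower, with a median of 1.89 (1.2 with the normexp background correction), whereas before inoculation 2 of 26 were higher and 10 lower in the Pik3ca/Trp53 culture, with a median of -0.42. Egr1, an immediate early factor, had 4.37 in the adenocarcinoma-derived and -0.23 in the cyst-derived culture, 24.3-fold higher. Dusp6, the phosphatase that switches ERK off, had 6.19 in the adenocarcinoma-derived and 2.73 in the cyst-derived culture, a log2 difference of 3.46. Etv1, an ETS factor, had 2.14 in the adenocarcinoma-derived and -1.40 in the cyst-derived culture, and before inoculation the order was reversed, at -3.12 in Pik3ca/Trp53 and -0.20 in Apc/Trp53 organoids. Spry1, a feedback inhibitor of receptor signalling, was the lower one, at 0.73 in the adenocarcinoma-derived and 2.77 in the cyst-derived culture.

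FOXO targets, which active PI3-kinase would hold down, had 10 of 29 members higher and 5 lower, with a median of 0.60. Fbxo32, a ubiquitin ligase of muscle wasting, had 2.58 in the adenocarcinoma-derived and -1.99 in the cyst-derived culture, 23.7-fold higher. Irs2, an insulin receptor adaptor, had 0.53 in the adenocarcinoma-derived and -1.80 in the cyst-derived culture, 5.03-fold higher. Igfbp1, a liver-type IGF-binding protein and a known FOXO target, was dim in the adenocarcinoma-derived culture and had -1.72 in the cyst-derived culture, at least 4.78-fold lower. Of the PI3-kinase and AKT pathway genes themselves, 9 of 31 were higher and 2 lower, with a median of 0.20. Both directions together, that is near the share of all measured genes that were 2-fold apart either way (32.6%). Taken by direction, the share of higher members was above that of all genes (16.9%) and the share of lower members below it (15.7%). Sgk1, a kinase related to AKT, was among the higher ones, with 4.62 in the adenocarcinoma-derived and 0.92 in the cyst-derived culture.

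Most YAP targets were also higher. Of 25 measured YAP targets, 15 were at least 2-fold higher and 2 lower, with a median of 1.2. Ankrd1 had 1.03 in the adenocarcinoma-derived culture and was dim in the cyst-derived culture, at least 35.8-fold higher, and Ccn1, a matricellular protein, had 2.84 and 0.37, 5.53-fold higher. Control organoids had similar or higher levels of both, 1.02 for Ankrd1 and 3.36 for Ccn1, so for these members it was the cyst-derived culture that stood below control organoids. Of 29 TGF-beta and BMP genes, 14 were higher and 5 lower, with a median of 0.95 that became 0.50 when dim probes were kept. Tgfb3, a ligand, had 5.96 in the adenocarcinoma-derived and 2.78 in the cyst-derived culture, 9.04-fold higher. Bmp7, a BMP ligand, had -0.59 in the adenocarcinoma-derived and 4.53 in the cyst-derived culture, 34.8-fold lower.

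Keratins of basal and squamous epithelium set the adenocarcinoma-derived culture apart from the other 5 arrays. Of 25 measured squamous and basal markers, 18 were at least 2-fold higher and 2 lower, with a median of 2.85, and before inoculation 7 of 26 were higher and 9 lower in Pik3ca/Trp53 organoids, with a median of -0.37. Krt14, a keratin of basal cells, had 5.52 in the adenocarcinoma-derived and -3.96 in the cyst-derived culture, 710-fold higher and the largest upward difference among genes above background on both arrays. Krt14 had -2.36 in Pik3ca/Trp53 and -2.75 in Apc/Trp53 organoids before inoculation and was dim with Trp53 loss alone and in control organoids. Its partner Krt5 had 4.06 in the adenocarcinoma-derived culture and was dim in the cyst-derived culture, at least 293-fold higher, and was above background on only 1 other array, at -2.40 in Apc/Trp53 organoids before inoculation.

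Krt17, a stress keratin of basal cells, had 4.23 in the adenocarcinoma-derived and -1.44 in the cyst-derived culture, 51.0-fold higher, against -3.16 in Pik3ca/Trp53 and -0.64 in Apc/Trp53 organoids before inoculation. Krt6a had 3.93 in the adenocarcinoma-derived and -1.91 in the cyst-derived culture, 57.3-fold higher. Serpinb5, the maspin gene of myoepithelial and basal cells, had 4.40 in the adenocarcinoma-derived culture and was dim in the cyst-derived culture, at least 370-fold higher. Control organoids had 1.47 for Serpinb5. Trp63, the basal cell master regulator, had 0.54 in the adenocarcinoma-derived and -2.17 in the cyst-derived culture, at least 3.02-fold higher, but its 2 probes disagreed by an SD of 4.47. Among genes of the cornified envelope, Tgm1, a transglutaminase that crosslinks it, had 1.65 in the adenocarcinoma-derived and -2.64 in the cyst-derived culture, 19.6-fold higher. Sprr1a, a small proline-rich envelope protein, had 4.58 in the adenocarcinoma-derived and 0.54 in the cyst-derived culture, 16.5-fold higher, against 3.15 in control organoids. In the 4-array fit described below, the difference common to both stages was 4.35 for Sprr1a and 4.06 for Sprr2f. These members were thus apart before inoculation as well, when the list as a whole had 7 higher and 9 lower members. The 2 members lower in the adenocarcinoma-derived culture were Lor, the loricrin gene, and Sprr2d. Lor had 0.61 in the adenocarcinoma-derived and 2.14 in the cyst-derived culture, 2.90-fold lower, and Sprr2d -3.91 and -2.69, 2.33-fold lower. Krt20, a keratin of umbrella and intestinal cells, had 6.37 in the adenocarcinoma-derived and -1.70 in the cyst-derived culture, 268-fold higher. Its level in control organoids was 3.12, so part of the difference was a low cyst-derived signal.

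The adenocarcinoma-derived culture also held RNA of genes typical of mammary epithelium. Of 19 measured members, 15 were at least 2-fold higher and 0 lower, with a median of 3.03, against 3 higher and 1 lower of 15 before inoculation. Csn3, the kappa-casein gene, had 6.36 in the adenocarcinoma-derived culture and was dim on the other 5 arrays, at least 1446-fold higher than in the cyst-derived culture, with 2 probes that differed by an SD of 2.91. Csn1s1, an alpha-casein gene, had 4.15 in the adenocarcinoma-derived culture and was dim on the other 5 arrays, at least 312-fold higher. Lalba, which encodes alpha-lactalbumin, had 3.44 in the adenocarcinoma-derived and -2.72 in the cyst-derived culture, 71.4-fold higher, with -2.95 and -3.40 in the Pik3ca/Trp53 and Apc/Trp53 organoids before inoculation. Elf5, the transcription factor of the milk-secreting lineage, had 4.51 in the adenocarcinoma-derived and 1.98 in the cyst-derived culture, 5.77-fold higher.

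Trf, the transferrin gene, had 8.20 in the adenocarcinoma-derived and 1.35 in the cyst-derived culture, 115-fold higher. It was listed with the secretory oviduct markers and not with the mammary genes. Before inoculation Trf was already apart, at 1.66 in Pik3ca/Trp53 and -2.22 in Apc/Trp53 organoids. Wfdc18, a whey acidic protein family member of the mammary gland, had 7.71 in the adenocarcinoma-derived and 1.25 in the cyst-derived culture, 87.6-fold higher. Unlike the caseins, Wfdc18 was also already apart before inoculation, at 4.88 in Pik3ca/Trp53 and -1.04 in Apc/Trp53 organoids. The caseins, the basal keratins and the Trp53 signal all stood higher on the same array. Some markers of other cell types stood higher on it too. Of 26 listed leukocyte markers 12 were measured, 6 of them higher and 1 (Ptprc) lower, with a median of 1.71 that became 0.41 when dim probes were kept. Cd163, a macrophage receptor, had -1.66 and was dim on the other 5 arrays, at least 5.57-fold higher, while Cd14 had 6.26 in the adenocarcinoma-derived and 3.85 in the cyst-derived culture, against 6.51 in control organoids. Of 20 adipose and skeletal muscle markers 10 were measured, 5 higher and 1 lower, with a median of 0.82. Fabp4, a fatty acid carrier of adipocytes and other cells, had 1.42 in the adenocarcinoma-derived culture and was dim in the cyst-derived culture, at least 47.1-fold higher, and Cidec, a lipid droplet protein, had -0.18 and was dim on the other 5 arrays, at least 15.5-fold higher. Adipoq and Plin1, defining adipocyte genes, were not well above background in either culture, and neither were Myh11 and Des of smooth muscle, whose list of 9 measured genes had 5 higher and 1 lower with a median of 1.29. Whether host cells of the inoculation site contributed RNA to either tumour-derived culture was not tested.

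Several factor genes were among the largest differences or bounds upward and are named for their rank, not as a list. Irx1, a homeobox factor, had 6.87 in the adenocarcinoma-derived culture and was dim on the other 5 arrays, at least 2053-fold higher than in the cyst-derived culture, the largest bound upward. Irx2 had 4.38 in the adenocarcinoma-derived and -3.01 in the cyst-derived culture, 168-fold higher, and -0.39 in control organoids. Sparcl1, a secreted glycoprotein of the SPARC family, had 5.84 and was dim on the other 5 arrays, at least 1007-fold higher. Foxi1, the forkhead factor of ionocytes and intercalated cells, had 4.51 and was dim on the other 5 arrays, at least 399-fold higher. Atp6v1b1, a proton pump subunit of such cells, had 1.98 and was also dim on the other 5 arrays, at least 69.3-fold higher. This gene is named as a member of the kidney and urothelium list, where 5 of 16 measured members were higher and 7 lower.

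Acute-phase proteins, alarmins and cytokines were higher in the adenocarcinoma-derived culture in 18 of 24 measured members and lower in 3, with a median of 2.86 (1.67 with the normexp background correction), against a median of 0.28 before inoculation. Saa1, a serum amyloid of the acute-phase response, had 5.86 in the adenocarcinoma-derived and -2.14 in the cyst-derived culture, 257-fold higher, and lay between -2.82 and -2.16 on the other 4 arrays. Saa2, its near copy, whose probe may share signal with Saa1, had 6.54 in the adenocarcinoma-derived culture and was dim on the other 5 arrays, at least 1636-fold higher. S100a8, an alarmin of neutrophils and stressed epithelium, had 1.44 in the adenocarcinoma-derived culture and was dim in the cyst-derived culture, at least 47.6-fold higher. Chil1, a chitinase-like protein, had 8.86 in the adenocarcinoma-derived and 0.95 in the cyst-derived culture, 240-fold higher, and 4.63 and 3.55 in Pik3ca/Trp53 and Apc/Trp53 organoids before inoculation. Among the exceptions, Pigr, the receptor that carries IgA across epithelium, had 1.64 in the adenocarcinoma-derived and 4.21 in the cyst-derived culture, 5.94-fold lower.

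Of 18 measured chemokines, 13 were at least 2-fold higher and 3 lower, with a median of 1.88 that became 0.21 when dim probes were kept. Ppbp, a ligand of CXCR2, had 3.62 in the adenocarcinoma-derived and -3.93 in the cyst-derived culture, 188-fold higher, against 2.57 in control organoids. Cxcl12, the ligand of CXCR4, had 1.07 in the adenocarcinoma-derived culture and was dim on the other 5 arrays, at least 37.0-fold higher. Cxcl5, which attracts neutrophils, had 6.04 in the adenocarcinoma-derived and 3.56 in the cyst-derived culture, 5.55-fold higher, while the other 4 arrays lay between 5.80 and 7.38. For Cxcl5 and Ppbp, then, the cyst-derived array was low compared with control organoids, whereas Cxcl12 and Saa1 were high in the adenocarcinoma-derived array alone. Cxcl15, a lung chemokine, was dim in the adenocarcinoma-derived culture and had 2.76 in the cyst-derived culture, at least 106-fold lower.

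Mesenchymal and matrix genes were higher in parts. Of 23 measured genes linked to the epithelial-mesenchymal transition, 14 were higher and 2 lower, with a median of 1.76 that became 0.61 over probes above background on both arrays. Postn, a matrix protein, had 2.84 in the adenocarcinoma-derived culture and was dim on the other 5 arrays, at least 126-fold higher. Snai1, a repressor of E-cadherin, had -0.26 in the adenocarcinoma-derived culture and was dim in the cyst-derived culture, at least 14.7-fold higher, while Twist1 had -1.30 and 1.2 in the same cultures, 5.62-fold lower. Vim, the vimentin gene, had -0.48 in the adenocarcinoma-derived and -2.27 in the cyst-derived culture, 3.45-fold higher. Of 21 measured collagens, 12 were higher and 6 lower, with a median of 1.96. The collagen median was 0.81 with dim signals at the background limit, 0.45 with normexp and 0.17 over probes above background on all 6 arrays, so most of its size rests on dim signals. Col9a1, a cartilage collagen, had 3.39 and was dim on the other 5 arrays, at least 184-fold higher. Col4a1, of the basement membrane, had -1.39 in the adenocarcinoma-derived and 2.73 in the cyst-derived culture, 17.4-fold lower. Dcn, Lum and Col3a1, 3 defining fibroblast genes, were not well above background in either culture.

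All 9 measured mesothelial markers of 15 listed were at least 2-fold higher in the adenocarcinoma-derived culture, with a median of 3.35 (2.19 with dim signals at the limit). Of the 2 tumour-derived arrays, members such as Bnc1, Gpm6a and Upk3b were above background on the adenocarcinoma-derived one only. The filter thus favoured a higher count for them. Upk3b had -2.76 in the adenocarcinoma-derived culture, below its levels of 0.09 with Trp53 loss alone and -0.09 in control organoids. Msln, which encodes mesothelin and is also made by oviduct epithelium, had 6.24 in the adenocarcinoma-derived and 2.28 in the cyst-derived culture, 15.6-fold higher, against 6.38 in control organoids. Igfbp5, an IGF-binding protein, had 7.69 in the adenocarcinoma-derived and 2.01 in the cyst-derived culture, 51.3-fold higher, and lay between 0.34 and 1.08 on the other 4 arrays. The defining mesothelial gene Lrrn4 was not well above background on any of the 6 arrays.

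Some transcription factors of the Müllerian epithelium were lower in the adenocarcinoma-derived culture. Of 18 measured transcription factors and hormone receptors, 8 were at least 2-fold lower and 1 higher, with a median of -0.94 that became -0.25 when dim probes were kept, against a median of 0.03 before inoculation. Msx1, a homeobox factor of the oviduct and uterus, had -3.39 in the adenocarcinoma-derived and 5.79 in the cyst-derived culture, 581-fold lower, and lay between 1.86 and 4.60 on the other 4 arrays. Foxa2, a forkhead factor of glandular epithelium, had -0.52 in the adenocarcinoma-derived and 4.90 in the cyst-derived culture, 42.8-fold lower, and lay between 3.11 and 4.50 elsewhere. Sox17, a Müllerian lineage factor, had 0.17 in the adenocarcinoma-derived and 3.03 in the cyst-derived culture, 7.24-fold lower, and lay between 1.96 and 2.93 elsewhere. For Msx1, Foxa2 and Sox17 the adenocarcinoma-derived array was thus the lowest of the 6 and the cyst-derived array the highest. Pgr, the progesterone receptor, had -0.54 in the adenocarcinoma-derived and 1.66 in the cyst-derived culture, 4.61-fold lower. Pax8, Emx2 and Esr1 differed by less than 2-fold.

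Secretory oviduct products were mixed, with 7 of 24 measured members higher and 10 lower (16.9% and 15.7% over all genes). Their median was -0.42. Prss29, an implantation serine protease, was dim in the adenocarcinoma-derived culture and had 7.03 in the cyst-derived culture, at least 2048-fold lower, the largest bound downward. It had 3.13 in Apc/Trp53 organoids before inoculation and was dim on the remaining 3 arrays. The largest upward difference of this list was that of Trf, given above beside the mammary genes. Oxtr, the oxytocin receptor, had 2.83 in the adenocarcinoma-derived and -2.25 in the cyst-derived culture, 33.8-fold higher. Of 24 measured multiciliated markers, 6 were higher and 10 lower, with a median of -0.84 (-0.50 with dim signals at the limit). Ccno, which drives centriole multiplication, had -0.99 in the adenocarcinoma-derived culture and was dim in the cyst-derived culture, at least 8.87-fold higher, while Spag6l, an axoneme gene, was dim in the adenocarcinoma-derived culture and had -0.99 in the cyst-derived culture, at least 7.90-fold lower.

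The largest difference downward among genes above background on both arrays was Gulo, which encodes the last enzyme of vitamin C synthesis. Gulo had -3.32 in the adenocarcinoma-derived and 7.05 in the cyst-derived culture, 1324-fold lower, against 4.19 in Pik3ca/Trp53 and 0.75 in Apc/Trp53 organoids before inoculation. Aldh1a1, which makes retinoic acid, had -2.0 in the adenocarcinoma-derived and 7.26 in the cyst-derived culture, 613-fold lower, and its near copy Aldh1a7, whose probe may share signal, had -3.71 and 3.0, 105-fold lower. Aldh1a3, another retinaldehyde dehydrogenase, went the other way, at 4.31 in the adenocarcinoma-derived and -0.15 in the cyst-derived culture, 22.1-fold higher. Others of the largest differences downward were Ramp3, a receptor activity-modifying protein, at -3.64 in the adenocarcinoma-derived and 3.66 in the cyst-derived culture, 157-fold lower, and Bpifb5, at -2.49 and 5.12 in the same cultures, 196-fold lower. Upward they included Tm4sf1, a tetraspanin-like membrane protein, at 7.24 in the adenocarcinoma-derived and -0.29 in the cyst-derived culture, 184-fold higher, and Pdlim3, an actin-associated protein, at 4.78 and -2.82, 193-fold higher. Pdlim3 lay between -3.59 and -2.24 on the other 4 arrays, whereas Tm4sf1 lay between 1.75 and 2.98 there, so that its difference had parts on both sides. Umod, the uromodulin gene of the kidney tubule, was dim in the adenocarcinoma-derived culture and had 4.85 in the cyst-derived culture, at least 454-fold lower, with 3.10 and 5.55 in Pik3ca/Trp53 and Apc/Trp53 organoids before inoculation. Slc2a3, a glucose transporter, was dim in the adenocarcinoma-derived culture and had 1.81 in the cyst-derived culture, at least 55.1-fold lower, while Slc2a1 had 5.80 and 4.14, 3.17-fold higher.

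Gastrointestinal-type mucous genes were lower in 12 of 20 measured members and higher in 4. The median of -2.04 became -0.50 with dim signals at the background limit, so much of its size rests on dim signals. Spink4, a goblet cell protease inhibitor, had -1.28 in the adenocarcinoma-derived and 2.23 in the cyst-derived culture, 11.4-fold lower. Gkn3, a stomach gastrokine, had -1.98 in the adenocarcinoma-derived and 1.13 in the cyst-derived culture, 8.62-fold lower, whereas before inoculation it had 2.17 in Pik3ca/Trp53 and -1.76 in Apc/Trp53 organoids. Muc5b, a gel-forming mucin, had -0.08 in the adenocarcinoma-derived and -4.09 in the cyst-derived culture, at least 10.4-fold higher. Of 32 genes of cholesterol and fatty acid synthesis, 9 were lower and 3 higher, with a median of -0.63. Over all measured genes, 32.6% were 2-fold apart either way, so the count of both directions together is near that share. Taken by direction, the share of lower members was above that of all genes (15.7%) and the share of higher members below it (16.9%). Whether this list differs from other genes was not tested.

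Interferon-stimulated and cell cycle genes separated the Pik3ca/Trp53 and Apc/Trp53 organoids before inoculation far more than the tumour-derived cultures. Of 45 measured interferon-stimulated genes, 3 were higher and 8 lower in the adenocarcinoma-derived culture, with a median of -0.30. The share of lower members was near that of all measured genes (15.7%), and the share of higher members was below it (16.9%). Before inoculation 34 of 44 were higher and 0 lower in Pik3ca/Trp53 organoids, with a median of 1.77. Over all genes measured then, 7.74% were higher and 7.27% lower. Isg15, a ubiquitin-like modifier, had 6.23 in the adenocarcinoma-derived and 7.04 in the cyst-derived culture, against 6.62 in Pik3ca/Trp53 and 3.91 in Apc/Trp53 organoids before inoculation and 2.83 in control organoids. Both tumour-derived arrays and the Pik3ca/Trp53 array before inoculation thus held high Isg15, and the other 3 arrays lower values. Interferon-induced GTPases had 6 of 16 members lower and 1 higher, with a median of -0.89, and Tgtp2 had 0.83 in the adenocarcinoma-derived and 3.93 in the cyst-derived culture, 8.59-fold lower.

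Of 30 mitosis genes, 0 were 2-fold apart between the tumour-derived cultures, with a median of -0.20, whereas 27 were higher in Pik3ca/Trp53 organoids before inoculation, with a median of 1.33. Mki67, the proliferation antigen, had 3.80 in the adenocarcinoma-derived and 4.30 in the cyst-derived culture, and 4.21 and 2.78 in Pik3ca/Trp53 and Apc/Trp53 organoids before inoculation. The difference between the later and the earlier pair has no replicates and was not tested.

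**Figure D3:**
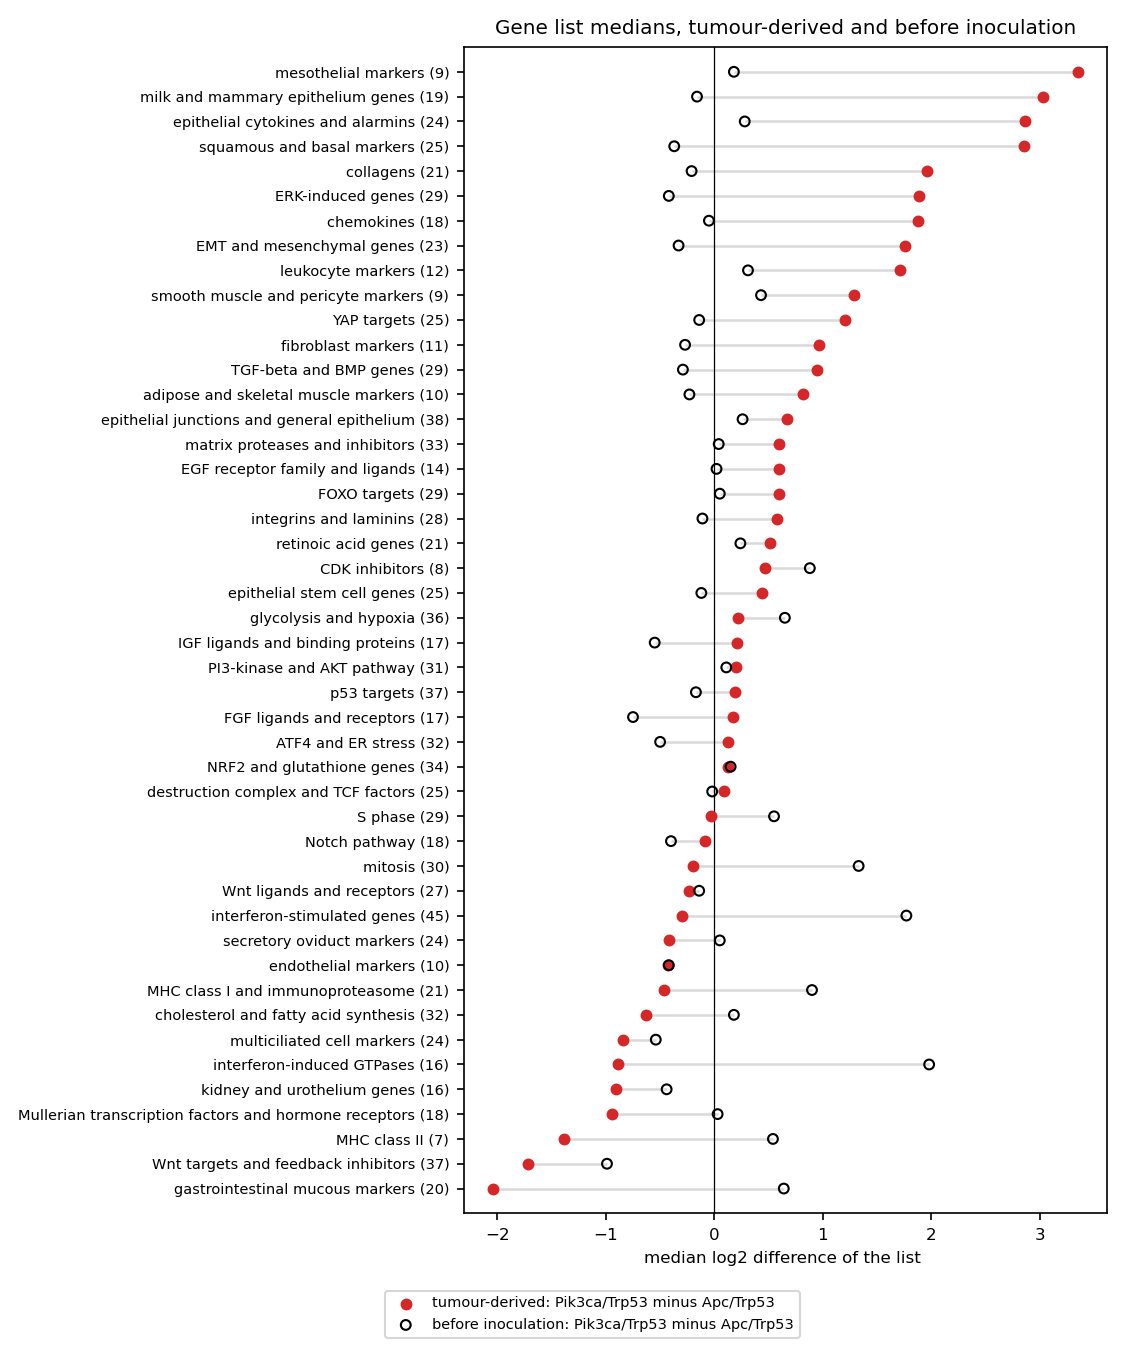
Median log2 difference, Pik3ca/Trp53 minus Apc/Trp53, of 46 gene lists (x axis), for the tumour-derived arrays (red points) and for the arrays before inoculation (open circles), with the number of genes measured on the tumour-derived arrays in brackets. Mesothelial, mammary, alarmin and squamous lists lie at 2.85 or above in the tumour-derived pair and within 0.37 of 0 before, Wnt targets are below 0 in both pairs, and interferon and mitosis lists are high before inoculation only.

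Over all genes, little of the later difference was present before. Of 14442 genes measured before inoculation, 1118 (7.74%) had signals higher by 2-fold or more, and 1050 (7.27%) lower, in Pik3ca/Trp53 than in Apc/Trp53 organoids. Among 14049 genes measured in both pairs, 302 were higher in both, which is 15.6% of the 1942 higher later and 30.9% of the 977 higher earlier. A further 373 were lower in both, which is 19.2% of the 1944 lower later and 41.0% of the 909 lower earlier. The difference turned round for 254 genes that were higher later and lower earlier and for 234 with the opposite order, dim signals included. Of the 11732 genes above background on all 4 arrays of the 2 pairs, 101 were higher later and lower earlier, and 109 had the opposite order. The 2 pairs share no array, and the correlation of their differences across genes was 0.15, given as a description because genes are not independent replicates.

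Among genes above background on all 4 arrays, Timp3, an inhibitor of metalloproteinases, turned upward, with 2.28 in the adenocarcinoma-derived and -0.78 in the cyst-derived culture, against -2.56 in Pik3ca/Trp53 and 0.70 in Apc/Trp53 organoids before inoculation. Tmprss13, a membrane serine protease, had 2.71 in the adenocarcinoma-derived and -1.83 in the cyst-derived culture, against -1.86 in Pik3ca/Trp53 and 0.63 in Apc/Trp53 organoids before inoculation. Chrna1, a muscle acetylcholine receptor subunit, had 1.71 in the adenocarcinoma-derived and -2.41 in the cyst-derived culture, against -2.78 in Pik3ca/Trp53 and -0.20 in Apc/Trp53 organoids before inoculation. Etv1, Krt17 and the adhesion gene Nrcam completed the 6 that turned upward most. Downward, Gulo led, followed by Spink8, a protease inhibitor, with 1.44 in the adenocarcinoma-derived and 5.08 in the cyst-derived culture, against 3.65 in Pik3ca/Trp53 and 0.41 in Apc/Trp53 organoids before inoculation. Ephx2, the soluble epoxide hydrolase, had 2.87 in the adenocarcinoma-derived and 5.61 in the cyst-derived culture, against 3.10 in Pik3ca/Trp53 and -0.21 in Apc/Trp53 organoids before inoculation. Gkn3, Cyp2f2 and Eml1 were the other 3 of the 6 that turned downward most.

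**Figure D4:**
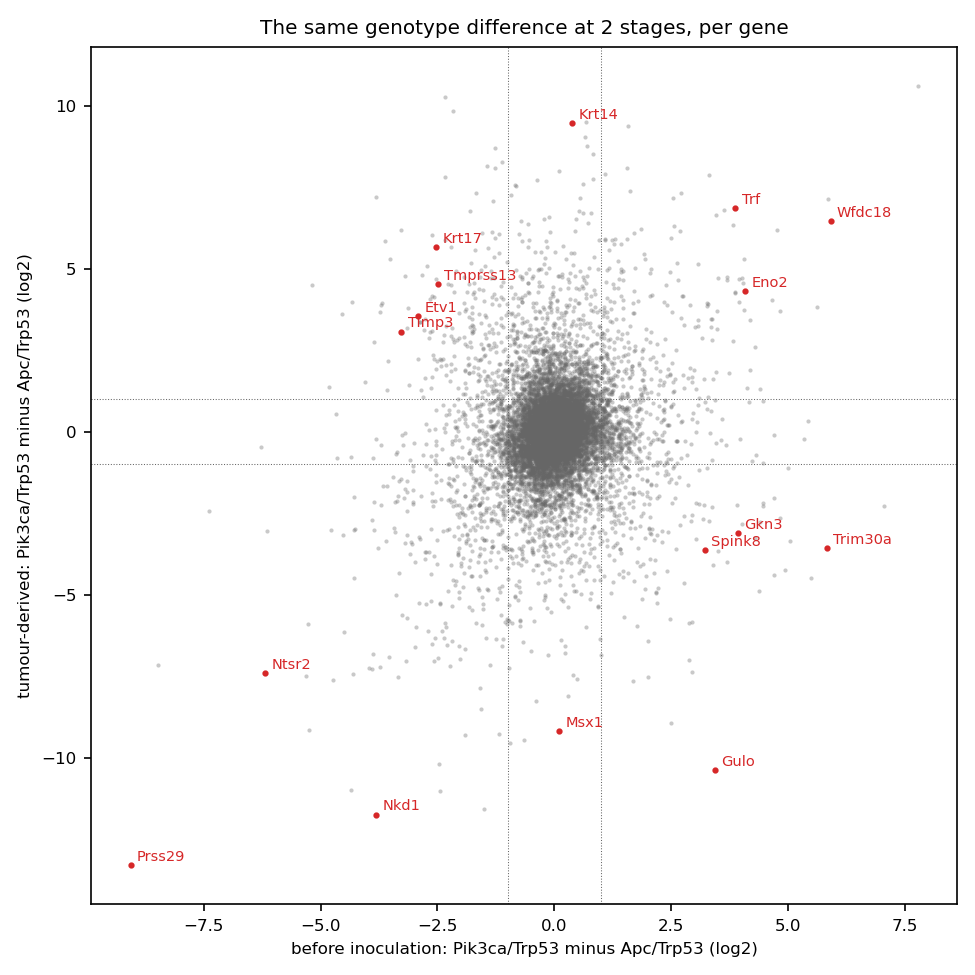
Each point is a gene measured in both pairs, placed by its difference before inoculation (x axis) and between the tumour-derived cultures (y axis), both Pik3ca/Trp53 minus Apc/Trp53 in log2 units from signals as measured, dim ones included. Dotted lines mark 2-fold. Wfdc18, Trf and Eno2 are high in both pairs, Prss29, Nkd1 and Ntsr2 low in both, and Gulo, Gkn3, Krt17 and Timp3 lie in the corners where the difference turned.

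A difference between the genotypes common to both stages can be fitted, with stage as a block, over 4 arrays and 1 residual degree of freedom. The 2 arrays of a genotype are a source culture and the culture derived from it, and not independent replicates. The SE reflects how alike the differences at the 2 stages were, pooled in part over genes, and not the spread between independent cultures. Of 14219 genes, limma called 0 higher (0%) and 0 lower (0%) at a Benjamini-Hochberg adjusted p of 0.05, and the smallest adjusted p was 0.819. At an unadjusted p of 0.05, 339 genes (2.38%) were higher and 405 (2.85%) lower. Wfdc18 had the smallest p in the fit, with a difference of 6.19 ± 0.316 (SE, n = 2 arrays for each genotype, limma adjusted p = 0.819). Eno2, the neuronal enolase, followed among the higher genes at 4.20 ± 0.282 (limma adjusted p = 0.819). Among the lower genes, Cpxm1, a carboxypeptidase-like protein, had -5.59 ± 0.331 and Ntsr2, a neurotensin receptor, -6.80 ± 0.454 (SE, limma adjusted p = 0.819 for each). Cpxm1 and Ntsr2 were dim in both Pik3ca/Trp53 cultures, so their fitted values rest on signals near background.

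Genes on chromosome 13 had higher signals as a group in the adenocarcinoma-derived culture. The 460 chromosome 13 genes above background on both arrays had a median difference of 0.47, against 0.31 for 421 genes on chromosome 14, 0.25 for 457 genes on chromosome 19 and medians from -0.16 to 0.12 for the other autosomes and the X chromosome. On chromosome 13 the cyst-derived culture differed from its own source by a median of -0.74, and the sources differed by 0.04. Between the cyst-derived culture and its source, the other autosomes and the X chromosome had medians from -0.10 to 0.02. The adenocarcinoma-derived culture differed from its source by -0.24 on chromosome 13, but also by -0.30 on chromosome 3 and -0.25 on chromosome 1. On chromosome 14 the adenocarcinoma-derived culture differed from its source by 0.23 and the cyst-derived culture from its source by 0.00. Irx1 and Irx2 lie on chromosome 13, and so does Tgfbi, a TGF-beta-induced matrix protein that had 1.40 in the adenocarcinoma-derived and 6.68 in the cyst-derived culture, 38.8-fold lower. DNA copy number was not measured here.

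**Figure D5:**
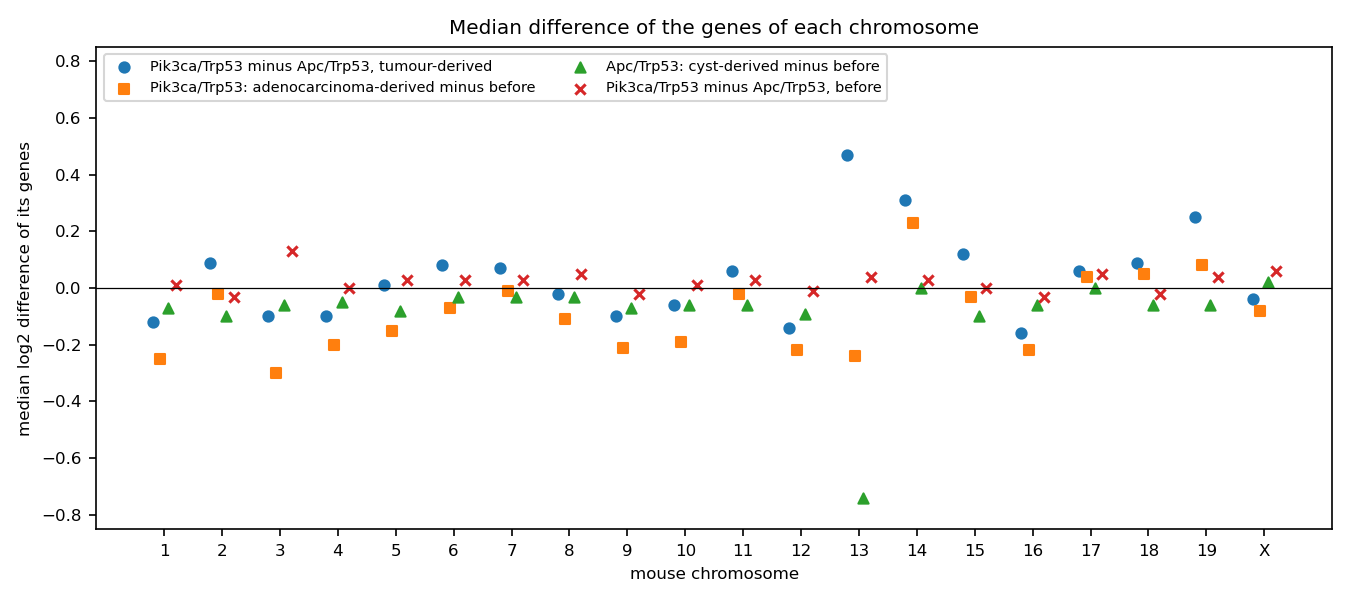
Median log2 difference of the genes of each chromosome (y axis) for the 2 tumour-derived cultures, for each tumour-derived culture against its source, and for the 2 sources, with 303 to 1067 genes for a chromosome in the tumour-derived pair. Chromosome 13 stands at 0.47 in the first comparison and at -0.74 in the cyst-derived culture against its source, away from the other chromosomes.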

How the data were processed

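Each of 6 organoid cultures was measured once, on a 1-colour Agilent array. As stated per the file headers, Agilent Feature Extraction 11.0.1.1 made the intensity values as deposited (background-subtracted processed signals) and marked each spot as well above background or not. The authors also deposited a table of log2 values for 2047 probes. These followed the processed signals with a correlation of 1 and a slope of 1 (offset 0.171 and 0.173 from the 75th percentile, column medians -0.05 for the adenocarcinoma-derived and -0.20 for the cyst-derived array). How that table was centred is not given in the sources used here, and it served only as an alternative.

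Here, log2 of the processed signal minus each array's 75th percentile was used, outlier spots were left out and probes of a gene averaged. Probes were named by accession through RefSeq (GRCm38.p6): 34566 of 56605 had a gene, giving 23787 genes. A gene dim on every probe of 1 array has a bound in place of a fold, set by the lowest signal among probes above background there. The 4-array fit, with stage as a block, used limma 3.58.1 in R 4.3.3 and was tested on simulated data. Python 3.11.15, numpy 2.4.6, pandas 2.3.3 and matplotlib 3.10.9 did the rest. Alternatives were other scalings, filters on dim probes, rules for probes and the background correction normexp (offset 50), which used the median signal because the files hold no mean signal.

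Genes were named by rule: the 3 targeted genes, the 12 largest differences each way above background on both arrays, the 6 largest bounds each way, up to 4 leading and 2 opposing members of each list, the 6 that turned most each way, and the 5 smallest p-values each way in the fit. Other members are given without rank. The groups compared, the 46 lists and the named genes were chosen with earlier results of these data known. The array number limits the precision. Probes of near-identical genes (Saa1 and Saa2, Aldh1a1 and Aldh1a7) may share signal. A further pair named in the series' design was not analysed here.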

Additional observations from a re-analysis of the deposited data

Results flagged for a closer look

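For 3 gene lists the median difference, Pik3ca/Trp53 minus Apc/Trp53, had opposite signs in the tumour-derived cultures and in the cultures before inoculation. Interferon-induced GTPases had a median of -0.89 between the tumour-derived cultures and 1.98 before inoculation. MHC class II genes had -1.39 and 0.54. Gastrointestinal mucous markers had -2.04 and 0.64. With 1 array for each culture the difference between the stages was not tested, and dim probes weigh on the MHC class II and mucous medians. Among MHC class II genes, Cd74, the invariant chain, had 0.78 in the adenocarcinoma-derived and 2.25 in the cyst-derived culture, against 2.3 in Pik3ca/Trp53 and 0.42 in Apc/Trp53 organoids before inoculation, while H2-Ab1, a beta chain, was higher in the Pik3ca/Trp53 culture at both stages (0.20 and -1.23 in the tumour-derived cultures, -1.47 and -3.79 before).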

How the results depend on the processing

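The direct comparison of the 2 tumour-derived arrays could not be paired, because each group has 1 array and no replicate number is shared. The block in the limma fit is stage, over 4 arrays of both genotypes. With 1 array a group, no array could be left out in turn. Genes higher and lower in the adenocarcinoma-derived culture numbered 1633 and 1109 with normexp, 1690 and 1381 with probes above background on both arrays, 1490 and 1284 with probes above background on all 6 arrays, and 351 and 318 of 839 in the deposited value table. The higher share of calls was 51.9%, against 59.8% with median scaling, where all genes had a median of 0.19, and 59.6% with normexp. Before inoculation, higher genes numbered 508 (normexp), 1983 (no filter) and 663 (all 6 arrays), and lower genes 383 (normexp), 545 (all arrays compared), 467 (all 6 arrays) and 688 (dim signals at the limit). Genes higher at both stages numbered 128 (normexp), 463 (no filter) and 193 (all 6 arrays), and genes lower at both 145 (normexp), 157 (all arrays compared) and 154 (all 6 arrays). The limma fit called 0 genes in every setting run. Of 600 recomputed list and chromosome medians, 444 moved by less than the median SD between probes (0.182), 146 by more, and 10 of at least that size changed sign. On the scanner files 38 of 46 lists kept their sign in all 11 alternatives. Small medians that crossed 0 were those of S phase (-0.10 to 0.15), Notch (-0.16 to 0.09) and FGF genes (-0.18 to 0.36). With no filter, Wnt ligands and receptors came to 0.19, MHC class II to 0.17, kidney genes to 0.17 and endothelial markers to 0.18. In the value table, FOXO targets came to -0.40, MHC class II to 1.55, epithelial stem cell genes to -6.90 and endothelial markers to 0.45. Retinoic acid genes came to -0.19 over all 6 arrays, and Wnt ligands and receptors to 0.19 without chromosome 13, an alternative chosen after seeing the data. The cause was not tested. Multiciliated markers ranged from -0.91 to -0.04, mesothelial markers from 1.39 to 3.54, EMT genes from 0.50 to 1.94, Wnt targets from -1.79 to -0.83, squamous and basal markers from 1.64 to 3.05 and milk genes from 2.46 to 3.25 in the alternatives run on the scanner files. Signal over background limits dim genes, whose folds are bounds.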

Other observations

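Matrix proteases and their inhibitors had 14 of 33 measured members at least 2-fold higher in the adenocarcinoma-derived culture and 4 lower, with a median of 0.60. Mmp13, a collagenase, had 1.55 in the adenocarcinoma-derived culture and was dim in the cyst-derived culture, at least 51.4-fold higher, against -1.83 in control organoids. Plaur, the urokinase receptor, had 2.50 in the adenocarcinoma-derived and -0.04 in the cyst-derived culture, 5.83-fold higher, against 3.64 in control organoids. Plat, the tissue plasminogen activator, had 4.37 in the adenocarcinoma-derived and 7.08 in the cyst-derived culture, 6.51-fold lower. Mmp7, an epithelial protease, had 4.42 and 6.61 in the same cultures, 4.56-fold lower.

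Among integrins and laminins, 12 of 28 were higher and 6 lower, with a median of 0.58. Lama3, a laminin chain of the epithelial basement membrane, had 0.35 in the adenocarcinoma-derived and -1.73 in the cyst-derived culture, 4.20-fold higher. Itgb4, its integrin receptor subunit, had 4.22 and 2.67 in the same cultures, 2.92-fold higher, against 4.62 in control organoids. Of 10 measured endothelial markers, 3 were higher and 4 lower, with a median of -0.43. Kdr, a VEGF receptor, was dim in the adenocarcinoma-derived culture and had 1.26 in the cyst-derived culture, at least 37.7-fold lower, while Pecam1 differed little (-3.90 and -3.74). Erg, an ETS factor of endothelium, had -0.77 in the adenocarcinoma-derived culture and was dim in the cyst-derived culture, at least 10.3-fold higher, and Plvap, a vesicle protein, had -0.56 and was dim in the cyst-derived culture, at least 11.9-fold higher.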
